A study of Mus musculus with 24 samples.

Results

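The response to ischemic kidney injury was described in CD31 isolates of male mice, that is, in cells pulled from digested kidney with microbeads against CD31, across all genes measured. The members are the 6 libraries that the labels place in the groups Sham_M_endo and IRI_M_endo, out of 24 in the series, and 19910 genes passed the filter on low counts. All 6 came from the kidneys of male FVB mice. The 3 sham libraries (Sham_M_endo) came from mice labelled as having no injury, and the 3 injured libraries (IRI_M_endo) from mice with ischemic acute kidney injury. Age and the time between injury and collection are not given in the sources used here. The series also holds CD31 isolates of females (2 sham, 3 injured) and proximal tubules microdissected from both sexes. The female CD31 isolates also entered the filter and the estimate of spread behind the male test, and the tubules serve only as points of comparison. Values are listed in the order of replicates 1, 2 and 3, sham before injured. Unless another scale is named they are CPM, estimated reads scaled to a common library size with the trimmed mean of M values (TMM).

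CD31, encoded by Pecam1, is an adhesion protein of endothelial cell contacts and is also present on platelets and some leukocytes. The kidney holds several kinds of endothelium: the fenestrated capillaries of the glomerulus, the peritubular capillaries that run along the tubules, and arteries, arterioles and vasa recta. Ischemia injures both the tubular epithelium and these vessels, and injured endothelium is known to display adhesion molecules for leukocytes, to lose barrier function and to shift towards clotting. The comparison asks which transcripts differ between injured and sham kidneys in the fraction enriched for these cells.

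The libraries held endothelial transcripts together with a large amount of tubular RNA. On the TPM scale, which corrects for transcript length, 18 endothelial markers summed to 176.4, 187.9 and 727.0 in the sham libraries and to 321.6, 705.9 and 400.7 in the injured ones. The 20 proximal tubule markers summed to between 11360 and 34638 TPM in the same 6 libraries. All 18 endothelial markers had reads in every library. In CPM the endothelial sum was 534.1 to 2063.9 in sham and 850.9 to 1805.3 in injured CD31 isolates, against 168.8 to 314.6 in sham and 264.4 to 435.3 in injured male tubule libraries, so the isolates were richer in endothelial transcripts than the tubules but were not pure. They are called CD31 isolates here for that reason. In such bulk samples, fewer cells of a type and less RNA per cell cannot be told apart.

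Other cell types differed between the libraries as well. The proximal tubule sum was 46795, 49146 and 24649 CPM in the sham libraries and 21952, 20532 and 18761 in the injured ones, so the groups did not overlap. Thick ascending limb and distal tubule markers summed to 11296, 10597 and 20991 CPM in sham and 9899, 19252 and 10148 in injured libraries. Collecting duct markers summed to between 1002 and 1175 CPM in sham and between 344.5 and 745.4 in injured libraries, also without overlap. Podocyte markers ran from 912.2 to 1577.0 CPM in sham and from 999.0 to 1893.8 in injured libraries. Neutrophil markers summed to 4.87, 3.77 and 7.80 CPM in sham and 16.3, 161.7 and 20.6 in injured libraries, with 4, 4 and 2 members at 0 in the sham libraries and 1, 0 and 1 in the injured ones.

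**Figure D1:**
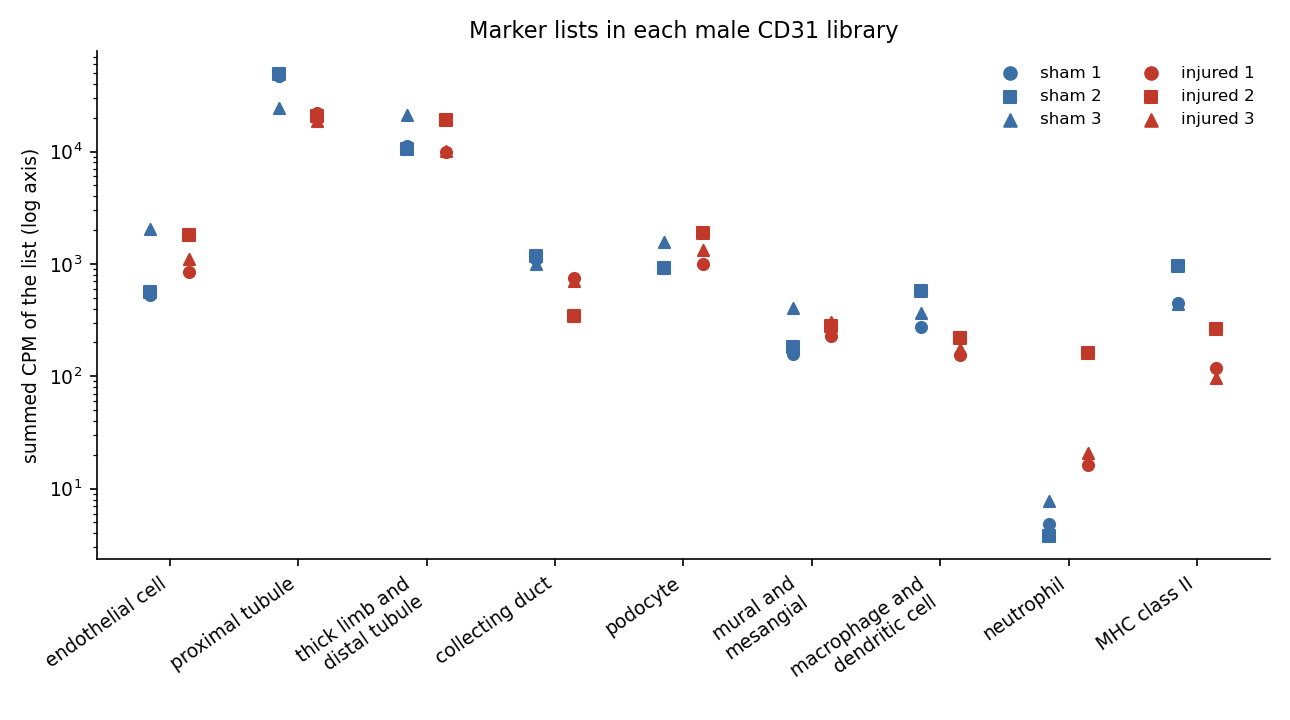
Summed level of each marker list (CPM, log axis) in the 3 sham (blue) and 3 injured (red) male CD31 isolates, with 1 symbol per replicate. Sham 3 has the highest endothelial sum, 2063.9 CPM, and injured 2 has the highest neutrophil sum, 161.7 CPM. The groups do not overlap in the sums of proximal tubule, collecting duct, macrophage and dendritic cell, neutrophil and MHC class II genes.

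A pair of libraries stood apart from the rest. Sham 3 had the highest endothelial marker sum of the 6 libraries and the lowest proximal tubule sum among the sham libraries. Injured 2 had correlations of 0.873 to 0.916 with the other 5 libraries across genes (log2 CPM), against 0.939 to 0.979 among those 5. Where leaving out either library ended or gave a call, turned the sign or moved a log2 change by over 1.5 times, the value without it is given. Depth ran from 38283829 to 54354257 estimated reads, with 7.62% to 12.1% of them mitochondrial. Transcripts of the Y-linked gene Ddx3y were at 44.8 to 149.1 CPM and Xist at 0 to 0.403 CPM, the pattern of males. No pair of libraries within a group agreed within sampling noise (chi-square per degree of freedom 46.1 to 476.9), so none was a copy of another. That check cannot show that the libraries came from separate mice. Each was counted as its own replicate, since the labels give 3 mice per sex and group.

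Injury was accompanied by 107 genes that rose and 65 that fell. The genes that rose included the epithelial injury marker Lcn2, the intermediate filament Krt20, the matrix protein Spp1, fibrinogen chains, metallothioneins and several stress response genes. Those that fell included enzymes and transporters of the proximal tubule. No member of the lists of endothelial markers, of vessel subsets or of endothelial functions passed the test. The 172 genes called by edgeR's quasi-likelihood test at a Benjamini-Hochberg adjusted p under 0.05 are 0.864% of the 19910 tested, with 0.537% called higher and 0.326% called lower. At an unadjusted p under 0.05 the number was 3029. The libraries of the groups did not overlap for 3537 genes, or 17.8%. All 107 genes that rose and all 65 that fell were among these. Of the genes that rose, 103 were protein-coding. Of those that fell, 51 were protein-coding, and the others included 6 long intergenic noncoding and 4 antisense transcripts. Reads of an antisense transcript cannot be told from those of an overlapping gene without strand.

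The number of calls depended strongly on single libraries. Without sham 3 it was 703 and without injured 2 it was 341, whereas it was 4 without sham 1, 0 without sham 2 (1967 at an unadjusted p under 0.05) and 47 without injured 1. Every call named below was thus lost without sham 2. Without both sham 3 and injured 2, an alternative chosen after seeing the data, it was 1595, with 750 higher and 845 lower, and 170 of the 172 were among them. With the proximal tubule marker score (mean log2 CPM of the list) as a covariate 0 genes were called (1953 at an unadjusted p under 0.05). The female CD31 isolates also entered that fit. The summed level of these markers did not overlap between the male groups, so it cannot be cleanly told apart from injury in the male libraries. Among the 107 genes that rose, injured 2 was the highest injured library in 61 and sham 3 the highest sham library in 59. Among the 65 that fell, sham 3 was the lowest sham library in 47.

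**Figure D2:**
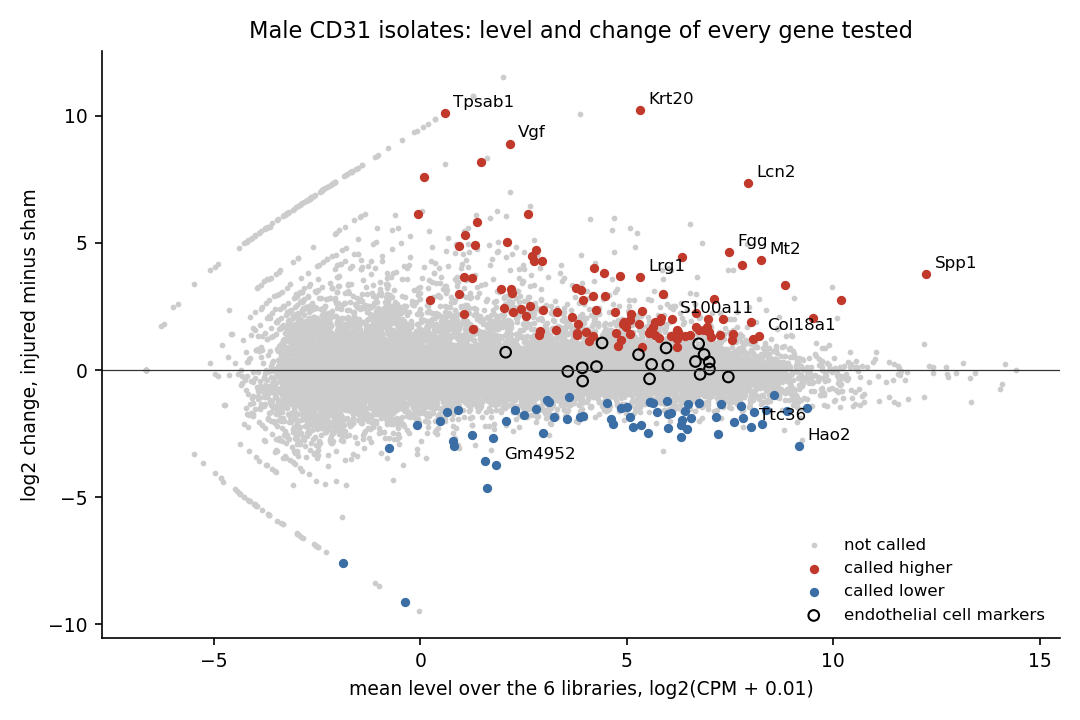
Mean level over the 6 male CD31 libraries, log2(CPM + 0.01), against the log2 change from sham to injured for every gene tested. Genes called higher (red, 107) and lower (blue, 65) are marked, and the 18 endothelial markers (open circles) lie close to 0, with a median of 0.20 on the log2 scale.

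Genes that define endothelium did not pass the test. None of the 18 endothelial markers was called, none had an unadjusted p under 0.05, and their median log2 change was 0.20 against -0.02 over all genes tested. Over all 19910 genes 0.864% were called and 3029 had an unadjusted p under 0.05. A list of this size can hold 0 calls at that share. Pecam1 was at 73.8, 63.4 and 203 CPM in sham and 107, 177 and 140 in injured libraries (log2 change 0.32 ± 0.44 SE, adjusted p = 0.765). Sham 3 was above all injured libraries, which were above the other sham libraries. Cdh5, the cadherin of endothelial junctions, was at 31.6, 38.4 and 140 CPM in sham and 63.8, 264 and 103 in injured libraries (1.03 ± 0.64, adjusted p = 0.477). Kdr, the main receptor for vascular endothelial growth factor, was at 89.4, 107 and 380 CPM in sham and 130, 195 and 152 in injured libraries (-0.27 ± 0.61, adjusted p = 0.865). In each of the 3 genes the sham range enclosed most of the injured values, and the wide sham range came from sham 3. The log2 change without sham 3 was 1.05 for Pecam1 and 2.04 for Cdh5, and without injured 2 it was 0.12 for Pecam1, 0.25 for Cdh5 and -0.45 for Kdr.

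Without sham 3, 1 of the endothelial markers was called. Vwf, which carries clotting factor VIII and tethers platelets, was at 0.576, 1.24 and 7.72 CPM in sham and 3.84, 6.29 and 5.40 in injured libraries, and its log2 change moved from 0.70 (adjusted p = 0.678) to 2.51 (adjusted p = 0.0213) without sham 3. Plvap, which forms the diaphragms of fenestrae and caveolae, was at 12.4, 15.3 and 148 CPM in sham and 65.4, 88.3 and 120 in injured libraries. Its log2 change moved in the same way, from 0.64 (adjusted p = 0.738) to 2.72 (adjusted p = 0.0192). For Kdr the sign also turned without sham 3, from -0.27 to 0.70. Without sham 3 the libraries compared differ in endothelial content as a whole, 534.1 and 558.8 CPM in the remaining sham libraries against 850.9 to 1805.3 in the injured ones, and the part of that difference in these values was not tested.

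Markers of the vessel subsets gave the same count of 0 calls. None of 9 glomerular, 7 peritubular, 12 arterial and vasa recta or 6 lymphatic markers was called, with 3, 1, 2 and 2 at an unadjusted p under 0.05 and 1, 0, 1 and 3 called by DESeq2. Over all genes edgeR called 0.864%, with 3029 of 19910 at an unadjusted p under 0.05, and DESeq2 called 1158 of 20753. Ehd3, a marker of the glomerular endothelium, was at 84.0, 74.0 and 303 CPM in sham and 112, 56.0 and 120 in injured libraries (log2 change -0.68 ± 0.64, adjusted p = 0.646), and its log2 change was 0.28 without sham 3 and -0.41 without injured 2. Plat, the tissue plasminogen activator, was at 360, 288 and 642 CPM in sham and 414, 4387 and 460 in injured libraries (2.03 ± 0.83, adjusted p = 0.281), and its log2 change was 0.02 without injured 2. The lipoprotein lipase gene Lpl was at 752, 718 and 660 CPM in sham and 225, 538 and 222 in injured libraries (-1.11 ± 0.33, adjusted p = 0.146). Its groups did not overlap, and without injured 2 it was called at -1.67 (adjusted p = 0.00817). Cxcl12, the chemokine that holds leukocytes and progenitors through CXCR4, was at 267, 282 and 160 CPM in sham and 113, 47.3 and 101 in injured libraries (-1.44 ± 0.33, adjusted p = 0.0726), with no overlap, and it was called without sham 3 (-1.65, adjusted p = 0.0244).

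Among adhesion and activation genes, 0 of 12 were called, with 5 at an unadjusted p under 0.05 and 1 called by DESeq2. Over all genes 0.864% were called, and 3029 of 19910 had an unadjusted p under 0.05. Icam1, the integrin ligand for firm adhesion of leukocytes, was at 22.7, 23.4 and 35.8 CPM in sham and 60.9, 259 and 68.0 in injured libraries (log2 change 2.24 ± 0.51, adjusted p = 0.0726). All injured libraries were above all sham libraries, and without sham 3 and injured 2 together it was called at 1.46 (adjusted p = 0.00747). Without injured 2 alone its log2 change was 1.24 (adjusted p = 0.0556). The selectins, which start leukocyte rolling, stood high in 1 library. Sele was at 1.92, 1.71 and 2.36 CPM in sham and 2.60, 145 and 2.49 in injured libraries (4.64 ± 1.48, adjusted p = 0.170), and Selp was at 0.120, 0.156 and 0 in sham and 0.454, 20.7 and 0.316 in injured libraries (6.26 ± 1.69, adjusted p = 0.110). Without injured 2 the log2 change of Sele was 0.35 and that of Selp 2.05. Vcam1, a ligand for the integrin of monocytes and lymphocytes, was at 4.03, 2.96 and 20.4 CPM in sham and 17.8, 36.2 and 17.5 in injured libraries (1.38 ± 0.65, adjusted p = 0.343), and it was called at 2.77 without sham 3 (adjusted p = 0.0146).

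Genes of endothelial signalling, tone and clotting control showed counts of 0 calls as well, beside 0.864% of all genes called. This held for 25 genes of VEGF, angiopoietin and Notch signalling (4 at an unadjusted p under 0.05, 1 by DESeq2), 23 of vascular tone (3 and 2), 19 of coagulation and fibrinolysis (8 and 2), 20 of junctions and caveolae (4 and 1), 18 of the glycocalyx (4 and 3) and 14 of sphingosine 1-phosphate and lipid uptake (5 and 1). Without sham 3 and injured 2 together the numbers called were 2, 2, 6, 3, 3 and 5 in the same order, and 1595 of 19116 over all genes. In the main test 3029 of all 19910 genes had an unadjusted p under 0.05. Nos3, the endothelial nitric oxide synthase, was at 9.95, 8.12 and 36.1 CPM in sham and 16.1, 83.1 and 29.5 in injured libraries (log2 change 1.25 ± 0.67, adjusted p = 0.404), and its log2 change was 0.33 without injured 2 and 2.25 without sham 3. Edn1, the precursor of the constrictor endothelin, was at 2.93, 3.03 and 13.5 in sham and 8.95, 35.7 and 12.7 in injured libraries (1.56 ± 0.66, adjusted p = 0.294). It was called without sham 3, at 2.68 (adjusted p = 0.0417), and was at 0.74 without injured 2.

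Several genes of these lists came close to the threshold with groups that did not overlap. Sphk1, a kinase that makes sphingosine 1-phosphate, was at 8.99, 6.17 and 7.44 CPM in sham and 27.2, 311 and 27.8 in injured libraries (log2 change 4.02 ± 0.85, adjusted p = 0.0542), and without injured 2 it was called at 1.87 (adjusted p = 0.00620). Anxa2, a cell surface cofactor for plasmin formation, was at 57.8, 46.0 and 98.1 in sham and 178, 232 and 152 in injured libraries (1.48 ± 0.31, adjusted p = 0.0513), and was called at 1.86 without sham 3 (adjusted p = 0.00923). Plaur, the urokinase receptor, was at 3.60, 2.57 and 9.83 in sham and 21.1, 104 and 20.2 in injured libraries (3.18 ± 0.73, adjusted p = 0.0726). Its log2 change was 1.95 without injured 2 (adjusted p = 0.109), and it was called at 3.98 without sham 3 (adjusted p = 0.0315). Sdc1 (1.98 ± 0.43, adjusted p = 0.0627) and Cd44 (2.80 ± 0.62, adjusted p = 0.0671) were also higher in injured libraries. Without injured 2 Sdc1 was called at 1.22 (adjusted p = 0.0434), and without sham 3 Cd44 was called at 4.03 (adjusted p = 0.00659). Sphk1, Anxa2 and Plaur are also expressed outside endothelium, and the isolates hold other cells as described above.

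Of 23 tubular injury genes 9 rose and none fell, beside 0.864% of all genes called. In 19 the groups did not overlap, beside 17.8% of all genes tested, and the median log2 change was 2.34. Lcn2 (chr2:32384633-32388252), the iron-carrier protein used as a marker of acute kidney injury, was at 3.86, 2.49 and 2.54 CPM in sham and 241, 819 and 403 in injured libraries. Every injured library lay far above every sham library, and the log2 change was 7.36 ± 0.85 (adjusted p = 0.00975). Spp1 (chr5:104435118-104441050), which encodes osteopontin, was at 693, 591 and 705 CPM in sham and 12143, 4140 and 11043 in injured libraries (3.78 ± 0.43, adjusted p = 0.00975). Krt20 (chr11:99428403-99438150), a keratin of epithelia, was at 0.0480, 0.156 and 0 in sham, 8 reads in all, and 19.9, 213 and 8.14 in injured libraries (adjusted p = 0.0362).

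The other called members of that list rose by less. S100a11 was the steadiest, at 31.6, 24.6 and 26.2 CPM in sham and 116, 103 and 108 in injured libraries (log2 change 1.99 ± 0.21, adjusted p = 0.00975). Anxa3, a calcium-dependent lipid-binding protein, rose by 2.34 ± 0.30 (adjusted p = 0.0107) and the TWEAK receptor Tnfrsf12a by 2.80 ± 0.52 (adjusted p = 0.0404). Krt8, a keratin of simple epithelia, rose by 1.87, the galactose-binding lectin Lgals3 by 1.59 and the calcium-binding protein S100a10 by 1.31 on the log2 scale, with adjusted p values of 0.0404, 0.0246 and 0.0404.

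The classic injury marker of the proximal tubule split the injured libraries. Havcr1, which encodes KIM-1, was at 4.8, 4.10 and 1.26 CPM in sham and 300, 4.90 and 239 in injured libraries (log2 change 5.74 ± 1.27, adjusted p = 0.0666). Injured 2 thus lay next to sham 1 and far below the other injured libraries. Clu, a secreted chaperone, was also lowest among the injured libraries in injured 2 but did not reach the sham level there, with 274, 173 and 117 in sham and 2393, 551 and 2530 in injured libraries (3.28 ± 0.71, adjusted p = 0.0600). Without injured 2 both were called, Havcr1 at 6.32 (adjusted p = 0.00739) and Clu at 3.71 (adjusted p = 0.0202). In contrast injured 2 held the highest value of Lcn2, Krt20, Sele, Selp and Plat.

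Among the 12 largest rises were several secreted proteins and receptors. Vgf (chr5:137026392-137033351), the precursor of neuroendocrine peptides, was at 0, 0 and 0.0458 CPM in sham, 2 reads in all, and at 7.95, 11.3 and 7.60 in injured libraries, 1319 reads (adjusted p = 0.00975). The ratio of the summed reads, corrected for library size, was 547 with a 95% counting interval of 151 to 4524. Lgi2, a secreted leucine-rich repeat protein, was at 0.0959, 0.207 and 0.206 in sham and 10.7, 13.7 and 11.5 in injured libraries (log2 change 6.12 ± 0.62, adjusted p = 0.00975). Lrp8, a receptor of the low-density lipoprotein receptor family, was at 0.0959, 0.207 and 0.435 in sham and 8.35, 11.5 and 5.04 in injured libraries (5.05 ± 0.62, adjusted p = 0.00975). For each of these 3 genes every injured library lay far above every sham library. Cd14, the co-receptor for bacterial lipopolysaccharide, rose from 4.29, 4.93 and 12 to 95.6, 257 and 112 CPM (4.45 ± 0.63, adjusted p = 0.0152).

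**Figure D3:**
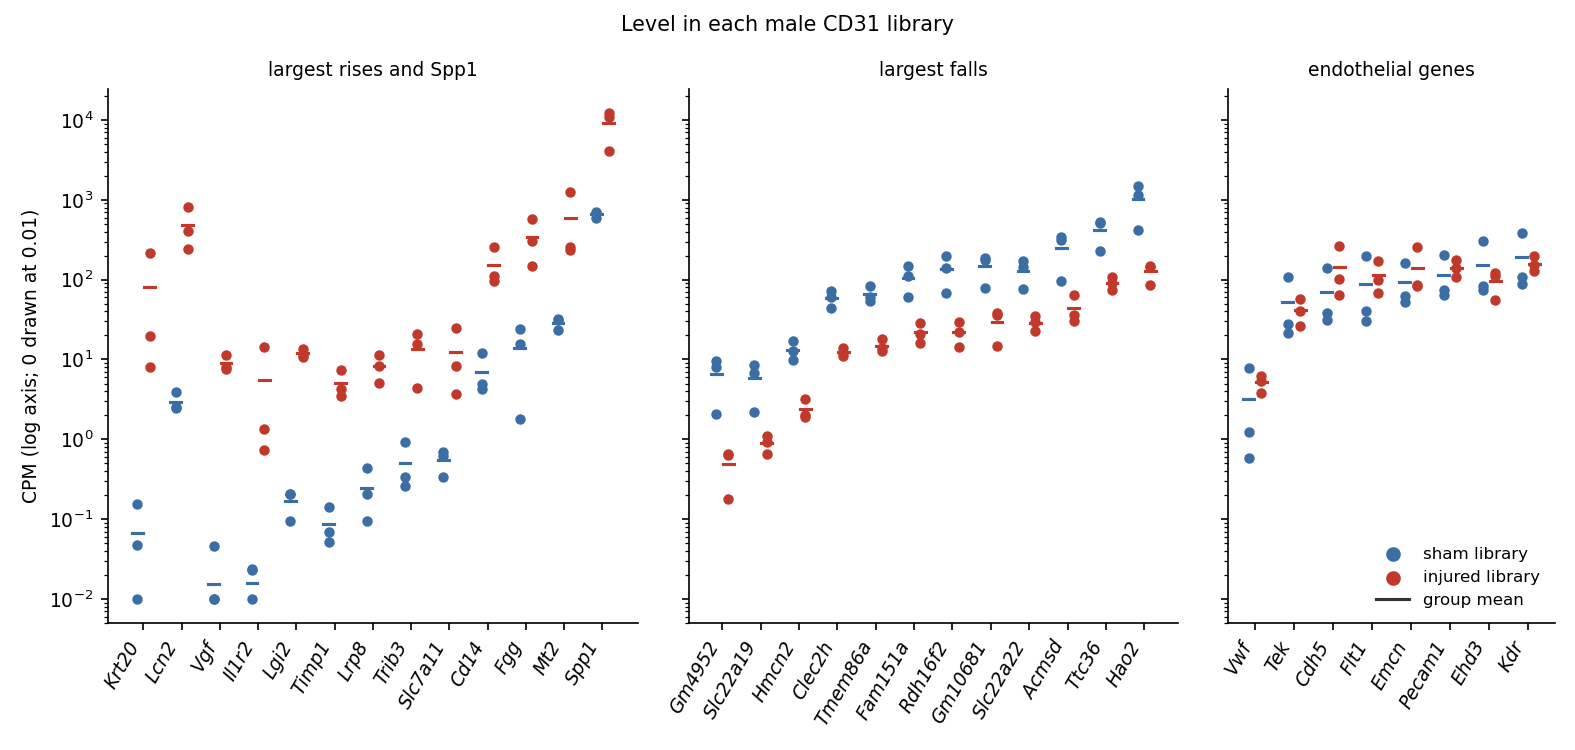
Level (CPM, log axis, 0 drawn at 0.01) of the named genes in each sham (blue) and injured (red) male CD31 library, with the group mean as a bar. Points of the largest rises and falls do not overlap between the groups, which the rule that picked them required. For the endothelial genes, picked without that rule, the sham and injured points interleave.

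Of 22 genes of the IL-6 family and of STAT3 feedback 5 rose, beside 0.864% of all genes called. In 18 the groups did not overlap, beside 17.8% of all genes, and the median log2 change was 3.01. Lrg1, a secreted glycoprotein of the acute phase that is known to act on vessels, was at 7.10, 4.38 and 6.00 CPM in sham and 32.4, 105 and 82.9 in injured libraries (3.65 ± 0.48, adjusted p = 0.0126). Bcl3, a nuclear partner of NF-kB subunits, rose from 7.48, 4.85 and 6.25 to 22.2, 44.6 and 29.9 (2.38 ± 0.31, adjusted p = 0.0126). Timp1, an inhibitor of matrix metalloproteinases, rose from 0.144, 0.0519 and 0.0687 to 4.25, 3.51 and 7.49 (5.80 ± 0.96, adjusted p = 0.0246). Stat3 itself was at 57.0, 64.8 and 95.9 in sham and 180, 525 and 173 in injured libraries (2.01 ± 0.42, adjusted p = 0.0520), and was called at 2.27 without sham 3 (adjusted p = 0.0362) and at 1.28 without injured 2 (adjusted p = 0.0342).

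The fibrinogen chains, which form the clotting protein fibrinogen and are made mainly by the liver, were among these genes. Fga was at 38.8, 26.2 and 7.51 CPM in sham and 354, 221 and 684 in injured libraries (log2 change 4.12 ± 0.69, adjusted p = 0.0256). Fgg was at 24.1, 15.4 and 1.79 in sham and 306, 149 and 574 in injured libraries (4.64 ± 0.93, adjusted p = 0.0489). Fgb was at 2.54, 2.70 and 0.137 in sham and 50.5, 10.7 and 162 in injured libraries (5.38 ± 1.23, adjusted p = 0.0726), and was called without injured 2 (5.90, adjusted p = 0.0278). In all 3 chains injured 3 was highest, injured 2 was lowest among the injured libraries and sham 3 was lowest of all. In the male tubules Fga and Fgg were also called, at 3.99 and 4.81.

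The 3 fibrinogen genes lie next to each other on chromosome 3, and upstream bases of Fgg, which was called, and Fgb, which was not, are shown for comparison. The sequences, chosen after the values were seen, are the 250 bases before the RefSeq start site on GRCm38.p6, read 5′ to 3′ on the gene's strand. Capitals mark matches on either strand to TTCNNNGAA, the palindrome that STAT factors are known to bind.
Fgg, chr3:83007474-83007723, plus strand: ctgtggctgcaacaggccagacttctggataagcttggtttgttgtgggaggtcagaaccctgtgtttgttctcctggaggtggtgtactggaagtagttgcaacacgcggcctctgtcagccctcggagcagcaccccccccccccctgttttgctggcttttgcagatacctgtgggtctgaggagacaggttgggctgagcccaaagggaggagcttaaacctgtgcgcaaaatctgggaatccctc
Fgb, chr3:83049864-83050113, minus strand: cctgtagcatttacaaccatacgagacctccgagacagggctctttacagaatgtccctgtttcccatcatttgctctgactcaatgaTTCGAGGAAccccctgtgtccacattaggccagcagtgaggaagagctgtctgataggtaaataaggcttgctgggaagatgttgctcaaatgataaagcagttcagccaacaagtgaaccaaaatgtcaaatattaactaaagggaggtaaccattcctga
The Fgb window has 1 match, from position -162 to -154 counted from -1 just before the start site. The window of Fga, which is not printed, has 1 match, from -234 to -226, and the Fgg window has 0. Among 32851 promoter windows of the same length 7.02% hold at least 1 match. A match describes letters and not a bound site.

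Genes of NF-kB signalling and chemokines had positive log2 changes in 24 of 24. Of these, 2 were called higher (0.864% of all genes were called), 14 had groups that did not overlap (17.8% of all genes) and the median log2 change was 2.28. DESeq2 called 11. Nfkb2, the subunit of the noncanonical pathway, rose from 12.8, 12.6 and 17.2 to 30.1, 48.1 and 38.5 CPM (1.45 ± 0.27, adjusted p = 0.0399). Cxcl10, a chemokine for activated T cells, rose from 1.37, 1.14 and 2.31 to 5.28, 12.4 and 6.03 (2.30 ± 0.45, adjusted p = 0.0454), and its adjusted p was 0.0506 without injured 2. Cxcl10 was also the only one of 20 interferon response genes called, with 4 at an unadjusted p under 0.05. Il34, a ligand of the macrophage growth factor receptor, was at 40.9, 42.8 and 24 in sham and 94.4, 220 and 80.8 in injured libraries (1.87 ± 0.39, adjusted p = 0.0513), and was called at 1.29 without injured 2 (adjusted p = 0.0443). Cx3cl1, the membrane-bound chemokine fractalkine, was at 28.5, 33.1 and 44.6 in sham and 91.6, 71.1 and 75.6 in injured libraries (1.16 ± 0.26, adjusted p = 0.0704), and was called at 1.37 without sham 3 (adjusted p = 0.0313).

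Of the 22 immediate early genes, 1 was called, beside 0.864% of all genes. Myc, a growth regulator, rose from 2.04, 1.63 and 4.19 to 15.8, 39.8 and 17.8 CPM (log2 change 3.22 ± 0.52, adjusted p = 0.0232). All 22 genes had a positive log2 change, with a median of 1.17. In 3 of them the groups did not overlap, a share near the 17.8% of all genes. The flow-responsive factors Klf2 and Klf4, which keep endothelium quiescent, were not called. Klf2 was at 38.5, 34.2 and 120 in sham and 50.9, 191 and 63.4 in injured libraries (0.66 ± 0.63, adjusted p = 0.649), and its value was -0.17 without injured 2 and 1.49 without sham 3.

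Of 20 genes of NRF2, metallothioneins and iron handling 5 rose and none fell, beside 0.864% of all genes called. In 8 the groups did not overlap, beside 17.8% of all genes. In this list 4 genes had negative log2 changes and the median log2 change was 0.86. Mt2 was at 31.9, 23.6 and 31.4 CPM in sham and 259, 1256 and 237 in injured libraries (4.33 ± 0.64, adjusted p = 0.0163), and without injured 2 it was called at 3.10 (adjusted p = 0.00620). Mt1 was at 91.7, 64.6 and 91.7 in sham and 393, 1774 and 319 in injured libraries (3.33 ± 0.61, adjusted p = 0.0383), and was called at 2.11 without injured 2 (adjusted p = 0.0109). Injured 2 was several times the other injured libraries for both genes, which encode small zinc- and copper-binding proteins that are close relatives of each other, so that reads may be shared between them.

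The pair lies side by side on chromosome 8 and rose together, and the bases before their RefSeq start sites are shown as above. Capitals mark matches to TGCNCNC, a looser pattern than the core of the metal response element, and a match need not be that core.
Mt2, chr8:94172368-94172617, plus strand: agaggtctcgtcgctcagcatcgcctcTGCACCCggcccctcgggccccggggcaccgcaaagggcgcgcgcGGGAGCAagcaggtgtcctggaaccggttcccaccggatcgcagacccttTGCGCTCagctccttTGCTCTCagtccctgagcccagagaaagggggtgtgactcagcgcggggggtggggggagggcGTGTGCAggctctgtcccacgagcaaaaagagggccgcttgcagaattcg
Mt1, chr8:94178839-94179088, plus strand: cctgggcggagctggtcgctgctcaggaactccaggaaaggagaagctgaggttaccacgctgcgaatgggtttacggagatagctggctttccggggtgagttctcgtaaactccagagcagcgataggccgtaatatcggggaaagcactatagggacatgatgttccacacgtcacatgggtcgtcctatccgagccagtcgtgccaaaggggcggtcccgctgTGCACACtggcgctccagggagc
The Mt2 window holds 5 matches to TGCNCNC, 3 on the forward and 2 on the reverse strand, and the Mt1 window holds 1. Bases beyond these windows were not searched, so the counts depend on where each start site is placed. They do not show that the Mt1 promoter as a whole has fewer matches. At least 1 match was found in 44.4% of the 32851 windows, and 5 or more in 0.344%.

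The other called genes of that list act against oxidants. Hmox1, the haem-degrading enzyme, rose from 31.9, 23.4 and 11.6 to 72.0, 128 and 76.0 CPM (log2 change 2.05 ± 0.37, adjusted p = 0.0359). Srxn1, which repairs oxidized peroxiredoxins, rose from 62.8, 63.0 and 48.6 to 250, 164 and 143 (1.67 ± 0.26, adjusted p = 0.0196). Slc7a11, the cystine importer that feeds glutathione synthesis, rose from 0.336, 0.622 and 0.687 to 8.39, 25.1 and 3.69 (4.49 ± 0.66, adjusted p = 0.0163). Of 20 genes of the integrated and ER stress response, 2 rose, beside 0.864% of all genes called. Trib3, a pseudokinase induced by ATF4, rose by 4.73 ± 0.67 (adjusted p = 0.0152), and Asns, the asparagine synthetase, by 2.74 ± 0.45 (adjusted p = 0.0240). No gene was called among 27 of hypoxia and glycolysis (7 at an unadjusted p under 0.05, 4 by DESeq2), 14 heat shock genes (2 and 1) or 16 targets of p53 (6 and 1). Cdkn1a, the cell cycle inhibitor p21, was at 18.9, 16.8 and 29.3 in sham and 48.5, 888 and 45.6 in injured libraries (3.92 ± 1.06, adjusted p = 0.111), and its log2 change was 1.12 without injured 2 (adjusted p = 0.340).

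Genes of growth, the cytoskeleton and matrix contributed a few calls each, beside 0.864% of all genes called. Of 26 cell cycle genes 2 rose: Mcm4, part of the replicative helicase, from 8.11, 7.57 and 9.44 to 21.9, 28.1 and 21.2 CPM (log2 change 1.5 ± 0.21, adjusted p = 0.0152), and Rrm2, a subunit of ribonucleotide reductase, from 3.81, 3.37 and 4.38 to 11.4, 10.6 and 11.2 (1.52 ± 0.26, adjusted p = 0.0297). Both groups were tight for Rrm2. For Mcm4 the TPM values overlapped, at 1.04, 1.44 and 5.12 in sham and 3.59, 7.69 and 3.51 in injured libraries. Of 21 actin, SRF and YAP targets 2 rose: the actin crosslinker Actn1 by 1.54 ± 0.23 (adjusted p = 0.0163) and Ankrd1, a YAP target, by 3.17 ± 0.60 (adjusted p = 0.0410). Of 32 matrix and TGF-beta genes 1 rose. This was Col18a1, a basement membrane collagen and the source of endostatin, from 149, 166 and 185 to 437, 351 and 471 (1.33 ± 0.19, adjusted p = 0.0159). Among 23 genes whose symbols begin with Tub, counted after their values were seen, the tubulins Tubb2a, Tubb2b and Tubb5 were called higher (0.864% of all genes were called).

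**Figure D4:**
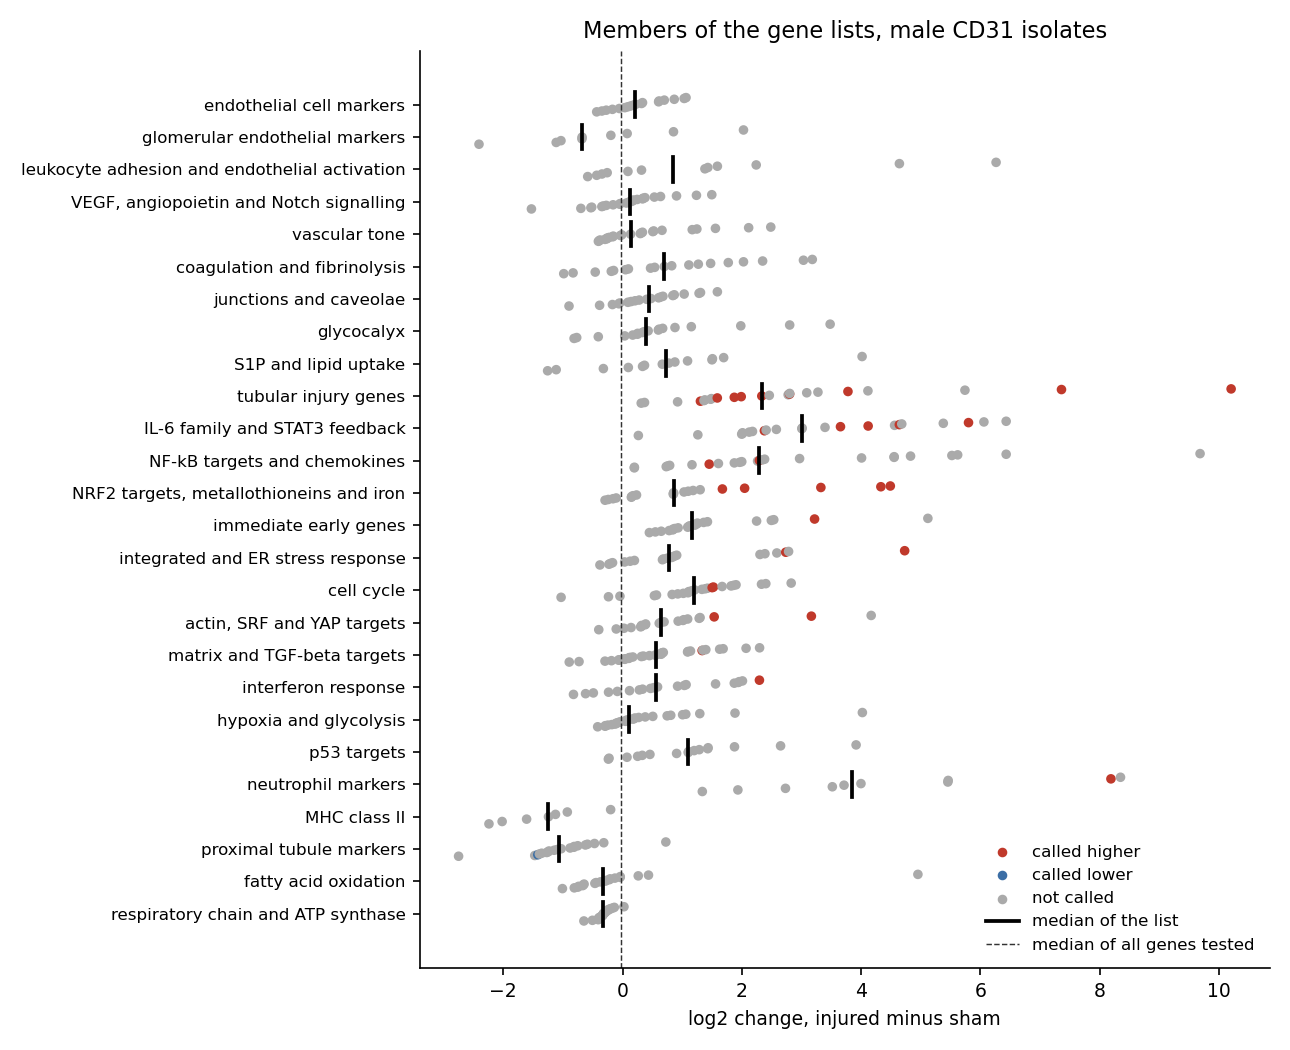
Log2 change from sham to injured of each member of the gene lists, with called members in red (higher) or blue (lower), others in grey, the list's median as a black bar and the median of all genes, -0.02, as a dashed line. Tubular injury genes (median 2.34) and the IL-6 list (3.01) lie to the right, and the lists of endothelial genes hold no called member, beside 0.864% of all genes called.

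Among called protein-coding genes of at least 5 CPM, the 12 that fell most included the following. Hao2 (chr3:98874521-98893239), a peroxisomal hydroxyacid oxidase of the kidney, was at 1490, 1144 and 415 CPM in sham and 149, 146 and 86.6 in injured libraries (log2 change -3.0 ± 0.45, adjusted p = 0.0163). Acmsd, which diverts tryptophan breakdown away from NAD synthesis, was at 339, 318 and 95.3 in sham and 30.7, 36.1 and 64.5 in injured libraries (-2.52 ± 0.48, adjusted p = 0.0410). Ttc36 was at 532, 512 and 229 in sham and 90.8, 108 and 73.6 in injured libraries (-2.23 ± 0.31, adjusted p = 0.0152). In each of the 3 genes sham 3 was the lowest sham library and still lay above all injured ones. Tmem86a, a lysoplasmalogenase family member, was at 84.4, 60.5 and 54.1 in sham and 14, 12.8 and 18.1 in injured libraries (-2.15 ± 0.27, adjusted p = 0.0104).

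The rest of the 12 largest falls were Gm4952, Slc22a19, Rdh16f2, Hmcn2, Gm10681, Fam151a, Clec2h and Slc22a22. Their log2 changes ran from -3.72 for Gm4952, at 8.11, 9.52 and 2.08 CPM in sham and 0.664, 0.179 and 0.633 in injured libraries, to -2.16 for Slc22a22, at 144, 169 and 75.8 in sham and 29.4, 34.8 and 23 in injured libraries. Slc22a19, Slc22a22, Rdh16f2, Clec2h and the Gm genes belong to families with close copies, among which reads may be split. Without injured 2 the calls of Slc22a19, Acmsd and Clec2h were lost (adjusted p 0.0577, 0.0730 and 0.0645). Of 324 solute carriers, counted after their values were seen, 3 rose and 5 fell, together 2.47%. Of 58 cytochrome P450 genes 1 rose and 3 fell, together 6.90%. The share over all genes was 0.864%.

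Of the 20 proximal tubule markers 1 fell and 0 rose, with 11 at an unadjusted p under 0.05, 8 called by DESeq2 and a median log2 change of -1.06. Over all genes 0.864% were called. In 11 of the 20 the groups did not overlap, beside 17.8% of all genes. Slc22a8, the organic anion transporter of the basolateral membrane, fell from 344, 323 and 277 to 103, 157 and 92.7 CPM (-1.42 ± 0.27, adjusted p = 0.0404). Slc34a1, the main phosphate cotransporter, was at 4598, 4708 and 2689 in sham and 1254, 2239 and 1478 in injured libraries (-1.27 ± 0.29, adjusted p = 0.0716), and was called without sham 3 (-1.49, adjusted p = 0.0145) and without injured 2 (-1.55, adjusted p = 0.0341). Lrp2, the uptake receptor megalin, was at 1623, 2568 and 1514 in sham and 929, 614 and 1131 in injured libraries (-1.09 ± 0.39, adjusted p = 0.220). Aqp1, the water channel of proximal tubule and descending vasa recta, was at 1164, 1062 and 1082 in sham and 630, 503 and 666 in injured libraries (-0.88 ± 0.19, adjusted p = 0.0594), and was called without sham 3 (-0.89, adjusted p = 0.0348). The groups did not overlap for any of these 4 genes. Umod, which marks the thick ascending limb, overlapped, at 6889, 5968 and 11458 in sham and 8174, 12853 and 8575 in injured libraries (0.28 ± 0.28, adjusted p = 0.659), and its log2 change was 0.62 without sham 3 and 0.05 without injured 2. No gene was called among 20 of fatty acid oxidation (7 at an unadjusted p under 0.05, 2 by DESeq2) or 23 of the respiratory chain (2 and 0). The part of the lower proximal tubule sum in the falls of transporters and enzymes was not tested apart from the covariate given above.

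Markers of immune cells differed in direction. Il1r2, the decoy receptor for interleukin-1 that neutrophils carry, was the only one of 10 neutrophil markers called, with 9 at an unadjusted p under 0.05. DESeq2 called 6, and edgeR called 0 without injured 2. In 9 the groups did not overlap, beside 17.8% of all genes. Il1r2 was at 0.0240, 0 and 0.0229 CPM in sham, 2 reads in all, and 0.734, 14.4 and 1.33 in injured libraries, 748 reads, a ratio of 310 with a 95% counting interval of 85.6 to 2568 (adjusted p = 0.0490). Injured 2 held most of these reads, and without it the adjusted p was 0.0752. Without sham 3 it was 0.0586. S100a8 and S100a9, the subunits of neutrophil calprotectin, were at 0.671 to 1.17 and 1.27 to 2.57 CPM in sham, and at 3.37, 36.5 and 2.43 and 4.79, 48.6 and 5.70 in injured libraries (log2 changes 4.00 and 3.52, adjusted p = 0.0800 and 0.0839). Without injured 2 the log2 changes were 1.72 and 1.61. Tpsab1, a mast cell tryptase with close copies, was at 0 in all sham libraries and at 2.45, 1.59 and 5.00 in injured libraries, at least 124-fold higher with a floor of 3 reads over the sham group (adjusted p = 0.0259). It was the only one called of 3 mast cell markers. Over all genes 0.864% were called.

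The genes of MHC class II, which present antigen, had negative log2 changes in 7 of 7 without passing the test. None of the 7 was called, 5 had an unadjusted p under 0.05, DESeq2 called 3, and the median log2 change was -1.24. Over all genes 0.864% were called, and 3029 of 19910 had an unadjusted p under 0.05. Cd74, the invariant chain, was at 266, 584 and 259 CPM in sham and 49.8, 137 and 48.4 in injured libraries (-2.24 ± 0.47, adjusted p = 0.0515), and was called at -2.91 without injured 2 (adjusted p = 0.00957). H2-Ab1 was at 134, 279 and 101 in sham and 32.9, 75.1 and 18.8 in injured libraries (-2.02 ± 0.51, adjusted p = 0.0888). Without sham 3 Cd74 was called at -2.44 (adjusted p = 0.0306) and H2-Ab1 at -2.28 (adjusted p = 0.0439), and without injured 2 H2-Ab1 was called at -2.73 (adjusted p = 0.0202). Of 13 markers of macrophages and dendritic cells 0 were called, with 2 at an unadjusted p under 0.05 and 1 by DESeq2, but 8 were called without sham 3. The summed level of the 13 was 272.0 to 572.9 CPM in sham and 153.4 to 218.1 in injured libraries, and Cd74 holds most of that sum in the sham libraries. Of the 13 markers, 11 had a positive log2 change and 2 a negative one, with a median of 0.87. C1qa, a complement component of resident macrophages, was at 0.576, 0.959 and 12.5 in sham and 8.98, 10.0 and 12.6 in injured libraries (1.17 ± 0.89, adjusted p = 0.562), and at 3.78 without sham 3 (adjusted p = 0.00786). Cd68, a lysosomal protein of macrophages, was at 0.168, 0.285 and 3.05 in sham and 11.5, 11.5 and 11.4 in injured libraries (3.29 ± 0.90, adjusted p = 0.115), and was called at 5.65 without sham 3 (adjusted p = 0.00598). Cd74 and these macrophage genes thus had opposite signs, and for C1qa and Cd68 sham 3 was the sham library closest to the injured ones. No gene was called among the markers of thick ascending limb, collecting duct, podocytes, mural cells, fibroblasts, lymphocytes, platelets or erythroid cells. Of the 14 collecting duct markers, however, 13 had a negative log2 change, with a median of -0.59, and DESeq2 called 2. In 7 of them the groups did not overlap, beside 17.8% of all genes.

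The same comparison in male proximal tubules asked whether the genes called in the CD31 isolates moved there too. Of 18815 genes tested in a fit of the 12 male libraries, 319 or 1.70% were called in tubules. All 172 genes called in the CD31 isolates were tested. Of the 107 that rose, 106 had a positive log2 change in tubules and 70 were called higher there. Of the 65 that fell, all had a negative log2 change in tubules and 26 were called lower. The median log2 change of the 107 was 2.19 in CD31 isolates and 2.28 in tubules, and that of the 65 was -1.85 and -1.59. The exception was Cxcl10, at -0.79 in tubules (adjusted p = 0.420). The tubule libraries carry the same numbers in their titles (3, 4 and 7 injured, 5, 6 and 9 sham) as the CD31 isolates, so the mice may be the same, which the labels do not say.

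A direct test of the difference between the isolations found 0 of 18815 genes (0%) by edgeR and 0 by DESeq2, with 227 at an unadjusted p under 0.05 by edgeR. Lcn2 differed by 0.18 ± 1.00 on the log2 scale (CD31 isolates minus tubules) and Spp1 by 0.22 ± 0.52. Lcn2 rose in the tubules from 5.29, 2.23 and 0.364 to 501, 482 and 203 CPM. Spp1 was at 323, 188 and 224 in sham and 2251, 2729 and 3961 in injured tubules. Anxa3 differed by -1.63 ± 0.51 (unadjusted p = 0.00845) and Vgf by 3.83 ± 1.53 (unadjusted p = 0.0280), and neither passed adjustment. Errors of this size leave wide intervals around each difference. In the injured state 49 of the 107 genes that rose had a higher level in CD31 isolates than in tubules and 58 a lower one, with a median difference of -0.02 (log2 of CPM plus 1), and more than 2-fold differences in 13 and 15 genes. Over all 19910 genes tested, 1030 were more than 2-fold higher in CD31 isolates and 359 in tubules. The larger differences thus leaned to CD31 isolates over all genes, but not among the 107.

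The genes called were also set against an enrichment measured in sham females, whose CD31 libraries entered the filter and the estimate of spread of the male test but not its contrast. There, 532 tested genes were more than 4-fold higher in CD31 isolates than in tubules. Of these, 2 rose and 3 fell in the injured males, or 0.940%, near the 0.864% of all genes tested. Among those that rose was Litaf, a regulator of cytokine transcription and endosomal sorting, from 32.6, 25.7 and 49.5 to 101, 297 and 111 CPM (log2 change 2.24 ± 0.41, adjusted p = 0.0392). Lrrc66 fell from 17.3, 16 and 38.1 to 7.34, 6.11 and 6.98 (-1.80 ± 0.36, adjusted p = 0.0489), along with the unnamed gene models Gm13111 and Gm45650. These genes were named after their values were seen. The call of Lrrc66 was lost without injured 2 (adjusted p = 0.0723). Its TPM values overlapped, at 2.46, 4.10 and 13.9 in sham and 1.32, 5.28 and 2.26 in injured libraries.

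The female CD31 isolates offered the same comparison with 2 sham and 3 injured libraries. There 0 of 19910 genes (0%) were called by edgeR, with 475 at an unadjusted p under 0.05. Of the 107 genes that rose in males, 99 had a positive log2 change in females, with a median of 0.51, and of the 65 that fell 46 had a negative one, with a median of -0.22. The log2 change in females was 3.77 ± 0.86 for Lcn2 and 1.49 ± 0.45 for Spp1, against 7.36 and 3.78 in males. For Mt2 the female value was 0.55 ± 0.63 against 4.33 and for Hao2 -0.67 ± 0.46 against -3.0. The difference between the sexes was tested as an interaction: 0 of 19910 genes (0%) passed with edgeR and 1294 had an unadjusted p under 0.05, whereas DESeq2 called 49 and edgeR without the filter on low counts called 44. For Lcn2 the difference, male minus female, was 3.59 ± 1.00 (adjusted p = 0.738). A difference between the sexes in the response was thus not established by the quasi-likelihood test for any gene, and the intervals are wide.

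**Figure D5:**
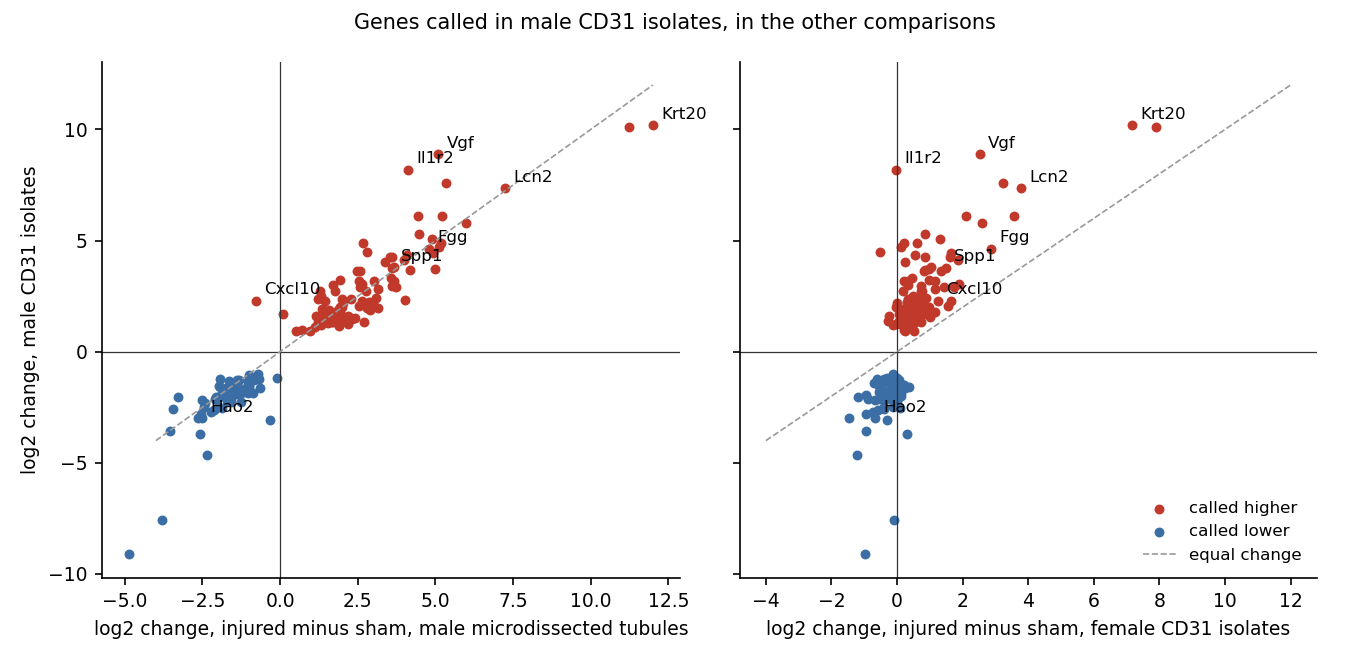
Log2 change of the 172 genes called in male CD31 isolates (vertical axis) against their log2 change in male microdissected tubules (left) and in female CD31 isolates (right), with genes called higher in red, lower in blue and equal change as a dashed line. In tubules the points lie along the line, with medians of 2.28 and -1.59, and in females they lie nearer to 0, with medians of 0.51 and -0.22.

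The authors' deposited table of this comparison lists 24169 genes, of which 1082 had an adjusted p under 0.05, 653 higher and 429 lower. Of the 172 genes called here, 168 passed in the authors' deposited table in the same direction and 0 in the opposite one. Mcm4 (log2 change 0.50, adjusted p = 0.259 by DESeq2) and Lrrc66 (-0.30, adjusted p = 0.402) were among those that did not pass there. For Lcn2 the authors' deposited table gives a log2 change of 7.27 with an error of 0.66, for Spp1 3.75 with an error of 0.40 and for Hao2 -2.81 with an error of 0.46.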

How the data were processed

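Poly-A RNA libraries (NEBNext Ultra II) were sequenced on a NextSeq 500, per the labels' protocols. The authors quantified transcripts with Salmon 0.13.1 on GRCm38, per the submitters' processing notes, and deposited an estimated count (expected count, not normalized) and a TPM value per transcript. The authors also deposited a DESeq2 comparison table with log2 fold changes, their errors and p-values adjusted for multiple testing.

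Expected counts were summed per gene and rounded, and gene positions were taken from GENCODE M21. Genes passing filterByExpr (minimum count 10, minimum total 15) were tested with edgeR 4.0.16 in R 4.3.3: TMM scaling, 1 mean per group over all 11 endothelial libraries, the quasi-likelihood F-test and Benjamini-Hochberg adjustment over the 19910 genes. Calls use an adjusted p below 0.05. Standard errors were obtained by dividing the absolute log2 change by the square root of the F statistic. With 7 residual degrees of freedom, biological variation (common coefficient) came to 0.447. The male tubules were compared in a fit of 12 male libraries, in which the 2 runs of sham tubule replicate 3 were summed. DESeq2 1.42.0 was an alternative, beside other scalings, filters, covariates and omitted libraries. The scripts were tested on simulated data. Promoter sequences come from RefSeq on GRCm38.p6, matched by symbol.

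Genes were named by a rule: called protein-coding genes without overlap and with 5 CPM or more in their higher group, the 12 that rose most and the 12 that fell most, up to 5 members of smallest adjusted p per list described, members of endothelial lists of at least 100 CPM, and a fixed set of known injury and endothelial genes. Not every gene that the rule allows is named, and some items are not reported here. The gene lists, the rule and the comparisons were chosen with earlier results of these data known. The labels say that RNA came from 3 mice per sex and group. Counting intervals and floors cover counting error only, since reads without molecular identifiers are not independent molecules.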

Additional observations from a re-analysis of the deposited data

How the results depend on the processing

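For injury in male CD31 isolates, 172 genes were called, and 153 with DESeq2's size factors (RLE) in edgeR. The count was 865 without the low-count filter (580 higher, 285 lower), 1158 with DESeq2 (683 and 475), 61 with length offsets, 302 with the endothelial marker score as covariate, 0 with the proximal tubule marker score, 2 in a fit of the 6 male libraries alone, 1595 without sham 3 and injured 2 together, and 0 to 703 when 1 library was left out. The cause was not tested. The share of calls that were higher was 62.2%, and 47.0% without both libraries, 50.2% without sham 3, 85.1% without injured 1 and 86.6% without injured 3. Those of the 172 genes that an alternative tested kept their sign in each of these alternatives. Where libraries were left out this was largely set in advance, since the groups did not overlap for any of the 172. With the replicate number as a block (replicate block) 51 were called, 46 of them shared. Deviations of same-numbered libraries from their group means correlated at 0.248, -0.211 and -0.192. These 3 values differ in sign, and they are too few to exclude that the numbers pair the samples. The sex difference gave 0 calls, with 0 under the replicate block, 44 without the filter, 49 with DESeq2 and 0 to 1 when 1 library was left out. The difference from tubules gave 0, and 0 to 1 when 1 library was left out, with 0 under a replicate block of the title numbers. Deviations of male CD31 and tubule libraries of the same title number correlated at -0.021, -0.042 and -0.01 for sham numbers 5, 6 and 9. For injured numbers 3, 4 and 7 they correlated at -0.492, 0.419 and 0.637.

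Some genes that were not called changed sign. With the proximal tubule score the log2 changes were -0.93 for Pecam1, -1.02 for Cdh5, -1.43 for Flt1, -0.77 for Vwf, -1.40 for Emcn, -1.12 for Plvap, -1.29 for Plat, -0.54 for Vcam1, -1.08 for Sele, -1.08 for Nos3, -0.70 for Edn1, -1.56 for Klf2, -1.56 for Klf4, -0.062 for Ptgs2, -1.62 for Thbd, -1.36 for Angpt2, -0.58 for Vegfa, -1.32 for S1pr1, 0.013 for Lrp2, -0.59 for Umod, -0.64 for C1qa and -0.84 for Cdkn1a. With the endothelial score they were -0.064 for Klf4 and -0.12 for Vegfa, and without both libraries 0.50 for Kdr, 0.96 for Tek, 0.53 for Ehd3 and -0.26 for Vegfa. When 1 library was left out the ranges were Flt1 -0.11 to 1.67, Klf4 -0.14 to 1.46, Kdr -0.60 to 0.70, Tek -0.70 to 0.74, Ehd3 -1.01 to 0.28, Emcn -0.14 to 1.31, Klf2 -0.17 to 1.49, Thbd -0.037 to 2.27, Angpt2 -0.30 to 1.25 and Vegfa -0.29 to 0.24. Depth limits the ratios of Vgf and Il1r2, with 2 sham reads each, and of Tpsab1, with 0.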
